A study of Mus musculus with 4 samples.

Results

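The ectodysplasin pathway was followed here through its ligand Eda, the receptor Edar, the adaptor Edaradd, the second receptor Eda2r and the related receptor Tnfrsf19, also known as Troy. Members were all non-control probes of the array whose gene name in the scanner files is one of these 5 genes, which gave 8 of 41174 probes and 5 of 28034 genes. Skin of the back, taken in full thickness, came from males 42 days old and is labelled as telogen, when hair follicles rest. The cKO mice lacked Fgf18, a secreted growth factor, in keratin 5-positive epithelium, and the WT mice were C57BL/6, the strain also given for the cKO mice. Per the design text, polyA RNA of 3 mice went into a single pool per genotype, which was run on a pair of one-colour Agilent arrays, so every error and p-value below measures the spread between 2 technical duplicates of 1 pool and not the spread between mice. The labels name neither the Cre line nor the deleted part of Fgf18.

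Ectodysplasin is a ligand of the tumour necrosis factor family that is cut from the cell surface by furin-type proteases. One splice form binds Edar, which recruits Edaradd and TRAF proteins and switches on NF-kB. A splice form that differs by a few residues binds Eda2r in its place. The route through Eda, Edar and Edaradd is required for the first hair placodes, teeth and sweat glands, and mouse mutants in the 3 genes (tabby, downless and crinkled) have the same hair phenotype. Tnfrsf19 resembles Edar in its extracellular part, is known from skin and hair follicles, and is not known to bind ectodysplasin.

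The measurements rest on the oligonucleotides below, which differ in where they sit in each gene and, for Tnfrsf19, in how bright they are. The last 30 bases of each of the 6 probes that passed the filter on dim signal are shown 5′ to 3′ as the scanner files give them, with the polyadenylation hexamer AATAAA in capitals where present.
Eda, NM_010099: gtcttctagtggatgcaaacagatgtagag
Edar, AF160502: catttaattaacatggcAATAAAttctgga
Edaradd, NM_133643: tccgcatacagaatcccatacagaatctct
Eda2r, NM_001161432: atgtagtatgggagatcaactttcttccct
Tnfrsf19, NM_013869: ttttgaatcagtcaggtcaagtcatgtgtt
Tnfrsf19, BC030062: ctacttagaatacaagatgcaggaaaacga
AATAAA was found in the Edar probe alone among the 8 member probes, against 4.78% of all non-control probes of the array. On mm9, the build named in the file headers, the Edar probe lies on chromosome 10 from 58063793 to 58063851, which is 59 positions for a probe of 60 bases. The Eda probe lies on X from 97595348 to 97595407 and the Edaradd probe on chromosome 13 from 12570074 to 12570133. The Tnfrsf19 probes start at 61582948 and 61593290 on chromosome 14, 10342 bases apart. The 3 Eda2r probes start at 94529458, 94531320 and 94533873 on X. No mm9 gene models were used, so the exon under a probe is not stated.

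Signals were scaled to the 75th percentile of each array, so that a scaled level of 1 equals that percentile. That percentile was 1403 and 1453 in cKO, against 1271 and 1316 in WT. Duplicates correlated across probes at r = 0.996 (cKO) and 0.995 (WT), and the closest arrays of different pools at 0.969, with probes not being independent replicates. Testing required a spot well above background on both duplicates of cKO, of WT or of both, and a probe was called if the limma adjusted p was under 0.05 at a change of at least 1.5-fold. Of 26070 probes tested, 9.72% were called, 4.92% higher and 4.8% lower in cKO, and 50.3% had an adjusted p under 0.05 at any fold. Duplicates of the 2 groups did not overlap for 79.8% of the probes with 4 values, and both cKO arrays exceeded both WT arrays for 32% of them. Fgf18 had a log2 change of -0.33 and was not called (adjusted p = 0.0053, limma), and the epidermal keratin Krt5 had a log2 change of -0.09.

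Edar, the receptor, was the 1 member past both the adjusted p and the fold threshold. The processed Edar signal reached 336 and 325 in cKO, against 144 and 130 in WT, and the spots were well above background on all 4. Before detrending the spots averaged 418 and 414 in cKO and 213 and 201 in WT, over a local background between 26 and 31. Both cKO arrays therefore lay far above both WT arrays, with a distance of 0.98 log2 units between the nearest arrays of the pools and at most 0.19 between duplicates. On the scaled log2 scale Edar averaged -2.11 ± 0.068 in cKO, against -3.24 ± 0.14 in WT (SD over n = 2 duplicate arrays). The change was a log2 1.13 (SE 0.086, limma adjusted p = 0.0047), a rise of 2.19-fold with a 95% interval from 1.83 to 2.61. Among all tested probes this change stood at the 97.6th percentile. Edar gave the 1 called probe among the 6 member probes tested, beside 4.92% called higher and 9.72% called in either direction over all probes. At any fold, 3 of the 6 were higher and 1 was lower at an adjusted p under 0.05 (limma). Over all 26070 probes 5006 were higher and 8115 lower, or 50.3% in either direction. Tnfrsf19 BC030062, 1 of the 3, passed the filter through cKO alone. Both cKO arrays exceeded both WT arrays for 4 of the 6, the probes of Edar, Edaradd and Tnfrsf19, beside 32% of all probes, and 1 of these 4 passed the filter through cKO alone.

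**Figure D1:**
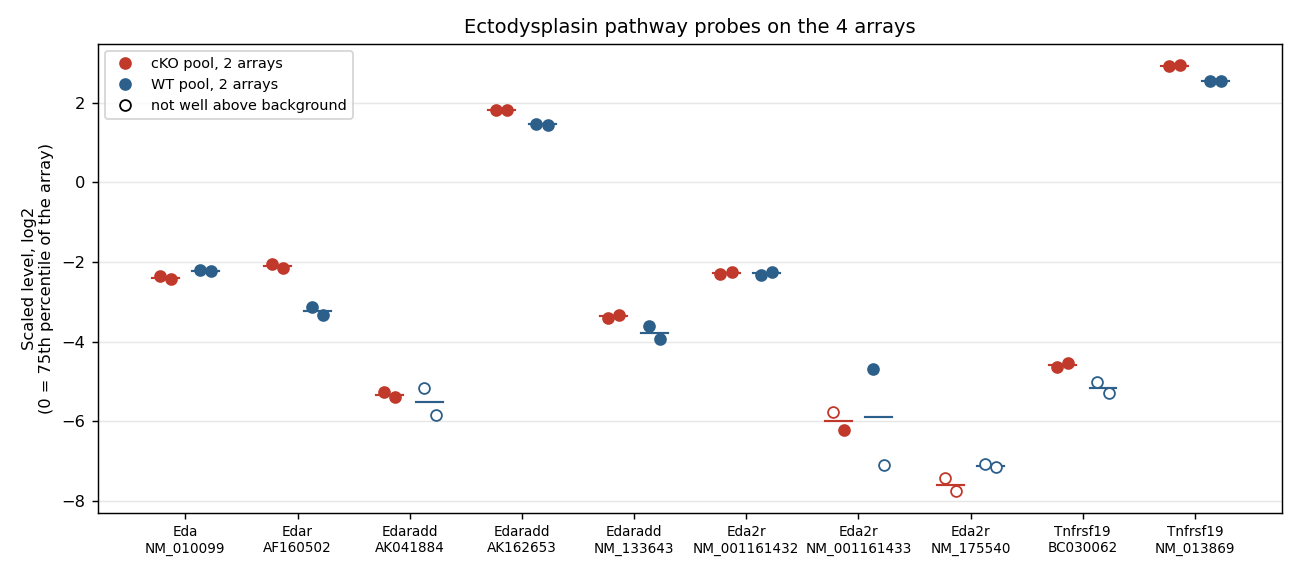
Scaled log2 level (y axis) of the 8 member probes and of 2 Edaradd probes listed under an older gene name (x axis), with cKO arrays to the left of WT arrays, short lines for group means and open points for spots not well above background. The Edar points sit near -2.1 in cKO and -3.2 in WT, while the Eda and bright Eda2r points of the pools lie close together; levels of different probes are not comparable.

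Eda, the ligand that Edar binds, was not called. The Eda probe had scaled levels of 0.195 and 0.185 in cKO, against 0.217 and 0.212 in WT. The cKO arrays were slightly the lower ones, and the groups did not overlap. The log2 change was -0.17 (SE 0.040, adjusted p = 0.038, limma), with a 95% interval from -0.29 to -0.06, which lies within the 1.5-fold needed for a call. Its adjusted p (limma) was 0.033 with quantile normalization, 0.052 with normexp and quantile normalization, and 0.13 without the filter on dim signal. The single Eda probe does not separate the splice forms that bind Edar from those that bind Eda2r.

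Edaradd, the adaptor that links Edar to TRAF proteins, was not called on any of its probes. The member probe gave scaled levels of 0.0946 and 0.0994 in cKO and 0.0819 and 0.0648 in WT. Its WT duplicates were further apart than the nearest arrays of the pools. The log2 change was 0.41 (SE 0.14, adjusted p = 0.082, limma), with a 95% interval from 0.01 to 0.82, and it was 0.24 without WT replicate 2, 0.58 without WT replicate 1 and 0.25 with normexp and quantile normalization.

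Another 2 probes carry the older Edaradd name A630043P06 in the scanner files and are no members by the rule; they were added after their values were seen. The bright one, AK162653, had scaled levels of 3.51 and 3.50 in cKO and 2.78 and 2.73 in WT. These duplicates agreed closely, and the pools were clearly apart. Its log2 change was 0.35 (SE 0.026, adjusted p = 0.0047, limma), or 1.27-fold with a 95% interval from 1.21 to 1.35, again under the fold threshold. The other, AK041884, failed the background test on both WT arrays, had overlapping groups and a log2 value of 0.17 (adjusted p = 0.62, limma; -0.17 without WT replicate 2, 0.52 without WT replicate 1 and 0.05 with normexp and quantile normalization). The probes lie 1410 bases apart, and AK162653 lies 5106 bases from the member probe.

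Eda2r, the second ectodysplasin receptor, which is also known as a p53 target and from skeletal muscle, was not called on the probe that could be tested, and its groups overlapped. The scaled levels of NM_001161432 were 0.202 and 0.209 in cKO and 0.199 and 0.210 in WT. The cKO values lay inside the WT range. The log2 change was 0.0058 (SE 0.043, adjusted p = 0.92, limma), and its 95% interval from -0.12 to 0.14 lies within 1.5-fold in either direction.

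The other Eda2r probes were too dim to be tested. NM_175540 had processed signals of 8.09 and 6.70 in cKO and 9.39 and 9.27 in WT and was not well above background on any array. NM_001161433 had 25.6 and 19.6 in cKO and 49.5 and 9.59 in WT, and it was well above background on 1 array of each group. Its WT duplicates differed by 2.42 log2 units, more than any difference between the pools for a member. These 2 probes lie 1862 and 4415 bases from the bright one.

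Tnfrsf19, the related receptor, had higher signals on both cKO arrays with each of its probes, and neither probe was called. The scaled levels of NM_013869 were 7.55 and 7.66 in cKO and 5.83 and 5.86 in WT. Both cKO arrays were above both WT arrays, and duplicates were at most 0.02 log2 units apart. The log2 change was 0.38 (SE 0.026, adjusted p = 0.0040, limma), or 1.30-fold with a 95% interval from 1.23 to 1.37, which stays under 1.5-fold.

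The second Tnfrsf19 probe, BC030062, was dim. It had scaled levels of 0.0399 and 0.0431 in cKO, where both spots were well above background, and of 0.0306 and 0.0254 in WT, where neither was. Its groups did not overlap, and WT held the lower values. With WT replicate 2 at the limit of detection and WT replicate 1 at its own signal, its bound was 1.34-fold higher in cKO on this scaling. The fitted log2 change of 0.57 (adjusted p = 0.028, limma) was just under the fold threshold, with a 95% interval from 0.23 to 0.91. The probe was called with quantile normalization (0.60). Its value was 0.71, past 1.5-fold, without WT replicate 1 and 0.23 with normexp and quantile normalization. This probe passed the filter through the cKO arrays alone. A bound of this kind takes, for each dim array, the higher of the probe's own signal and the lowest signal well above background.

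**Figure D2:**
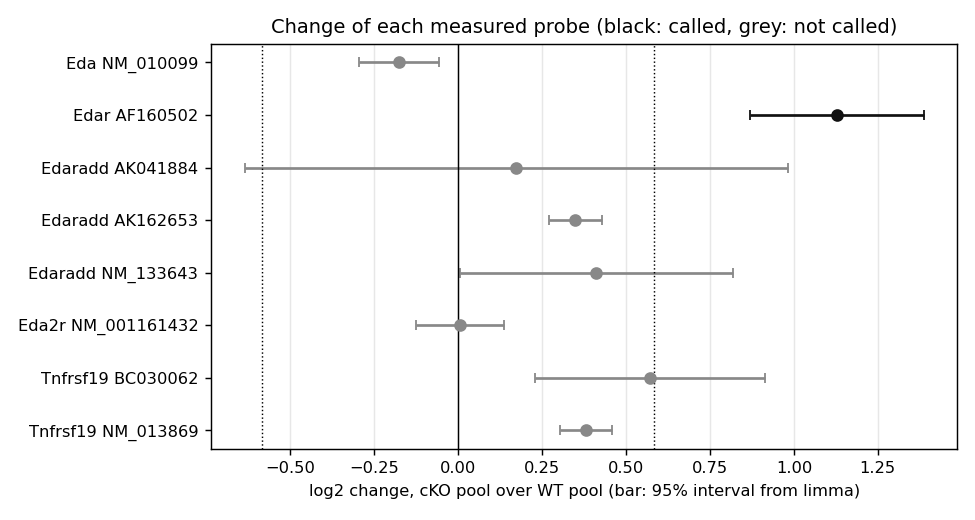
Log2 change of cKO over WT (x axis) with its 95% interval from limma for the 6 member probes tested and 2 further Edaradd probes (y axis), with dotted lines at 1.5-fold. The Edar interval, 0.87 to 1.39, lies wholly beyond the dotted line, and the intervals of Eda, the bright Eda2r probe, Edaradd AK162653 and Tnfrsf19 NM_013869 lie wholly within the lines.

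Ordered by their log2 change, the 5 tested member probes well above background on all 4 arrays ran from Eda (-0.17) and Eda2r (0.0058) through Tnfrsf19 NM_013869 (0.38) and Edaradd NM_133643 (0.41) to Edar (1.13). The intervals of Tnfrsf19 NM_013869 and of Edaradd overlap each other, and that of Edar lies above those of the other 4. Tnfrsf19 BC030062, dim in WT, has no fixed place in this order. Differences between probes were not tested. In whole skin, fewer cells of a type and less RNA per cell cannot be told apart.

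**Figure D3:**
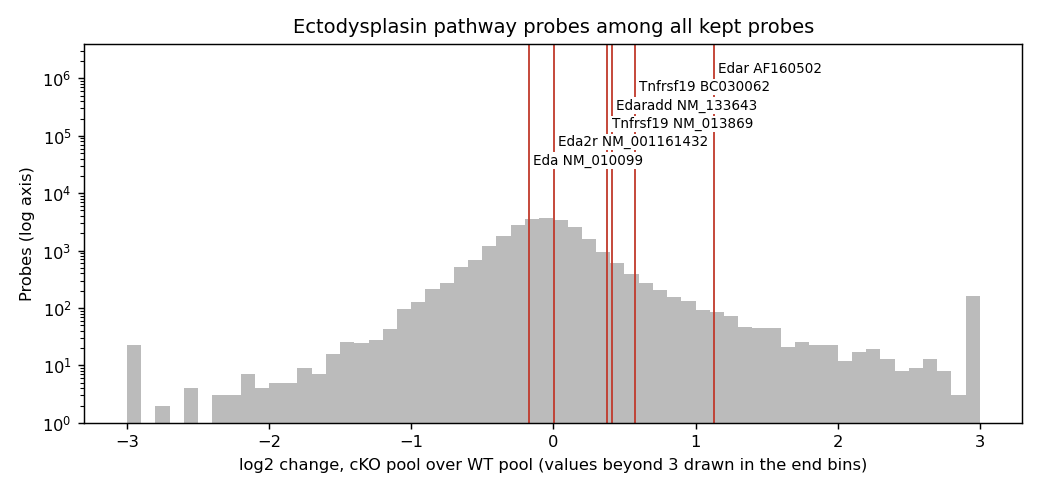
Number of tested probes (y axis, log scale) by log2 change of cKO over WT (x axis, values beyond 3 in the end bins), with a line for each of the 6 member probes. Most probes lie near 0, as do Eda and Eda2r, and Edar lies in the right tail at 1.13.

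The signalling arm below the receptor showed no called gene. In a list of the protease Furin, TRAF proteins, the TAK1 complex, IkB kinases, NF-kB subunits and their inhibitors, 21 of 22 genes were measured, none was called and the median log2 change was 0.01, against 10.4% of all 17555 genes called and a median of -0.05. At an adjusted p under 0.05 without a fold threshold, 6 were higher and 2 lower (limma), beside 21% and 32% of all genes, with log2 values between -0.27 and 0.26 in the list. The brightest were Nfkbia, the inhibitor IkB-alpha that NF-kB itself induces, at 0.26 (SE 0.027, adjusted p = 0.0076), and Tab1, a partner of the kinase TAK1, at -0.01 (0.02 and 0.04 with the normalizations that use quantiles). Rel was not well above background on any array. A gene is represented here by its brightest tested probe.

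Genes known as targets of Edar signalling in skin appendages were split. Of 15 listed genes 10 were measured, of which 3 rose and 1 fell, with a median of 0.25. Shares of all genes called were 5.64% higher and 4.8% lower. Shh, a growth signal of the placode and hair matrix, had scaled log2 levels of -3.92 and -3.82 in cKO and -7.34 and -7.14 in WT. It was not well above background in WT and passed the filter through cKO alone. With WT at the limit of detection it was at least 2.38-fold higher in cKO. Its fitted log2 change of 3.37 (adjusted p = 0.0014, limma) shrank to 1.32 with normexp and quantile normalization.

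Wnt10b, a Wnt ligand of the placode, had -2.70 and -2.72 in cKO and -3.82 and -3.64 in WT, a rise of 2.03-fold (log2 0.68 with normexp and quantile normalization, against 1.02). Ccn2, a matrix-associated growth factor-binding protein, rose 1.67-fold with levels of 3.82 and 3.8 in cKO and 3.06 and 3.09 in WT. Vcam1, an adhesion molecule induced by NF-kB, fell 1.51-fold by its brightest probe, while its other probe gave -0.12. The Vcam1 call was lost with normexp and quantile normalization (-0.57), with the mean of probes (-0.36), without WT replicate 1 (-0.57) and without cKO replicate 1 (-0.56). The brightest genes not called were Wnt10a, at -0.29, and Icam1, at -0.18 (-0.10 with quantile normalization). Dkk4, Fgf20 and Madcam1 were not well above background on any array, Cxcl11 was so on 1, and the array has no probe named Foxi3.

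**Figure D4:**
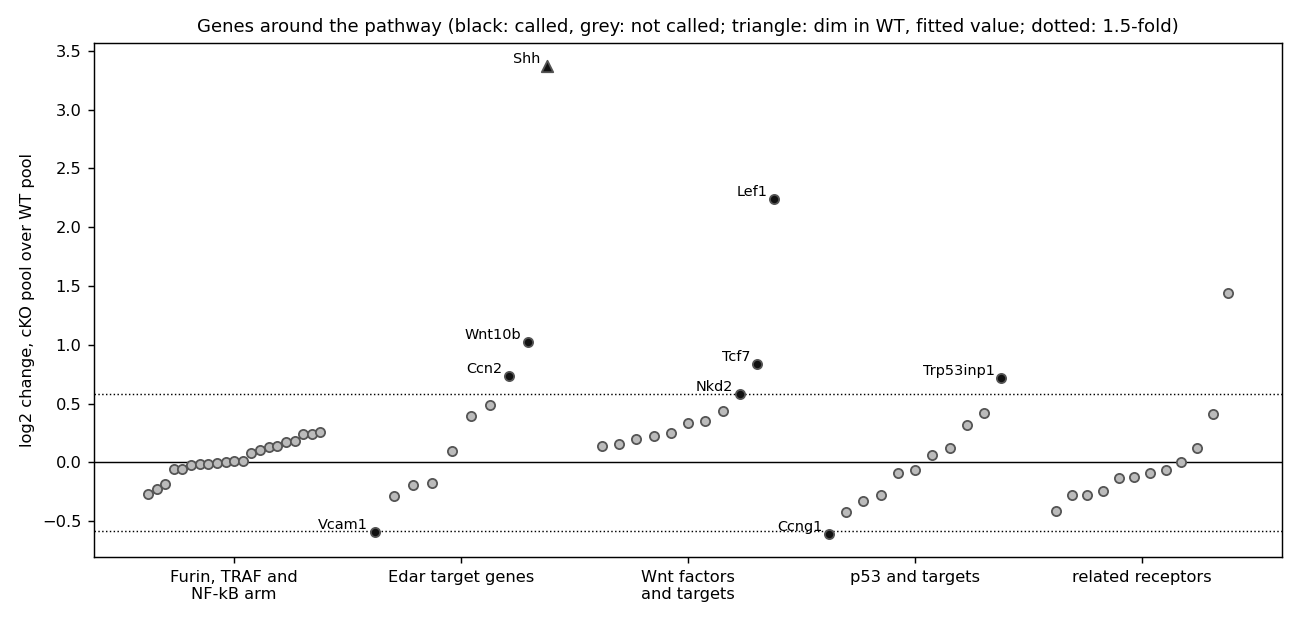
Log2 change of cKO over WT (y axis) for the measured genes of 5 lists (x axis), black where called and grey where not, with triangles for genes dim in WT drawn at their fitted value. Points of the NF-kB arm stay between -0.27 and 0.26, and all 11 Wnt genes lie above 0.

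Wnt signalling acts upstream of Eda and Edar in the placode. All 11 measured genes of 12 in a list of Wnt factors and targets had positive log2 values, also under the 4 other scalings, beside 42.9% of all genes with a positive value. Their median was 0.34, and 3 were called higher, beside 5.64% of all genes. Lef1, the TCF-family factor of hair placode and matrix, had scaled log2 levels of -0.76 and -0.77 in cKO and -3.03 and -2.98 in WT. Its log2 rise of 2.24 was the largest of the list. Tcf7, a related factor, rose 1.78-fold (log2 0.57 and not called with the mean of probes). Nkd2, an inhibitor induced by Wnt, stood at the fold threshold with 1.5-fold and lost its call under 5 alternatives. Ctnnb1, which encodes beta-catenin, and Rnf43, a ligase that removes Wnt receptors, were the brightest not called, at 0.34 and 0.35. The feedback gene Axin2, named outside the rule after its value was seen, had 0.14 (adjusted p = 0.0495, limma).

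The Edar promoter is shown because Edar was the member called. These 250 bases before its start were taken from RefSeq on GRCm38.p6, chr10:58675697-58675946, minus strand, with capitals for a TCF/LEF motif.
Edar, promoter: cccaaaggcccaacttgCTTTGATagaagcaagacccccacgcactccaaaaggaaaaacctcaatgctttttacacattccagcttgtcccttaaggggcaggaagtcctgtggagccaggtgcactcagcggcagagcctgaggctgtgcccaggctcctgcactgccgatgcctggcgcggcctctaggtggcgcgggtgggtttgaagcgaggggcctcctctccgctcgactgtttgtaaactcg
The motif was searched on both strands as CTTTGAA and its variants ending in AT, TA or TT in windows of 250 bases before to 50 after each start. Edar had 1 match, beginning at -233, and 1 of the 2 Tnfrsf19 promoters had 1, at -202. Those of Eda, Edaradd and Eda2r had no such letters, and 16.9% of 32851 promoters hold a match. An NF-kB motif, GGG and TTCC with any 3 bases between them on either strand, occurred in the Eda2r promoter alone of the 6, at -200, and in 5.56% of all promoters. A match describes letters in the window and not a bound site.

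Among p53 and its targets, 11 of 11 were measured, 1 rose and 1 fell, with a median of -0.07. These counts lie near the 5.64% and 4.8% of all genes called higher and lower. Trp53inp1, a stress protein that acts with p53, rose 1.65-fold, and Ccng1, encoding cyclin G, fell 1.53-fold (log2 -0.53 and -0.49 and not called with the normalizations that use quantiles). Phlda3 (-0.28, and -0.13 with quantile normalization) and Cdkn1a (0.32), which encodes the cell cycle inhibitor p21, were the brightest not called. Of 12 related TNF and p75 family receptors and co-receptors none was called at a median of -0.11, beside 10.4% of all genes called. Tnfrsf1a, the main receptor for tumour necrosis factor, had -0.27 and Ltbr, the lymphotoxin beta receptor, -0.24, and both had -0.14 with quantile normalization. At an adjusted p under 0.05 without a fold threshold, 1 was higher and 4 were lower (limma), beside 21% and 32% of all genes. The largest log2 value of that list, 1.44 for Lingo1, a partner of p75 and Troy in nerve cells, came from cKO levels of -4.29 and -2.28 against WT levels of -4.88 and -4.57 (adjusted p = 0.21, limma). Its cKO duplicates were further apart than the pools, and it is named after its values were seen.

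Marker genes of other cells were read from the same pools. For the counts of this and the next paragraph, 5.64% of all genes were called higher, 4.8% lower, and 42.9% had a positive log2 value. A summed level is weighted towards the brightest genes of its list, so its direction can differ from that of the median change. All 11 measured markers of hair matrix, shaft and inner root sheath of 12 listed rose, beside 5.64% of all genes called higher. Krt35 rose 337-fold, and Krt25 and Krt85, dim in WT, had bounds of 704-fold and 315-fold higher in cKO on this scaling. Their fitted log2 changes of 9.47 and 9.35 shrank to 8.05 and 7.19 with normexp and quantile normalization. The summed scaled level of the 11 was 277 and 274 in cKO, against 2.16 and 2.23 in WT. Krt25, Krt85 and Dsg4 were not well above background in WT and passed the filter through cKO alone. The label telogen stands beside these values, and the part of matrix cells in the Edar result was not tested. Basal epidermis markers (6 of 6 measured, none called) summed to 331 and 325 in cKO and 322 and 340 in WT. Of 8 bulge and hair germ markers, 2 rose, the hair germ cadherin Cdh3 and Lhx2 (0.58, under 1.5-fold, without WT replicate 1). Of the 8, 4 had positive and 4 negative log2 values, with a median of 0.04. The sums were 297 and 297 in cKO and 328 and 345 in WT.

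In the dermal papilla list 7 of 9 were measured and Crabp1 fell (log2 -1.32), while 4 of the 7 had positive values and 3 negative. Their median was 0.05, and the sums, with Crabp1 in them, were 3.14 and 3.1 in cKO and 3.94 and 3.82 in WT. Corin, 1 of the 4 with positive values, was not well above background in WT and passed the filter through cKO alone. Its bound was 1.56-fold higher in cKO (adjusted p = 0.12, limma). Sox2 was not well above background on any array. All 9 skeletal muscle markers had negative log2 values (8 of 9 with either normalization that uses quantiles), while 42.9% of all genes had a positive value. Of the 9, Actn3, Ckm and Atp2a1 fell, beside 4.8% of all genes called lower. The sums were 942 and 942 in cKO and 1297 and 1360 in WT. With quantile normalization Ckm (-0.48) and Atp2a1 (-0.42) were no longer called, nor were they with normexp and quantile normalization (-0.49 and -0.42). Whether muscle content moved the Eda2r value was not tested. Adipocyte markers, of which Lep fell, summed to 222 and 222 in cKO and 210 and 211 in WT. Of the 6, 2 had positive and 4 negative log2 values, with a median of -0.09 (4 positive and 2 negative with either normalization that uses quantiles). Sebaceous gland markers, of which Fads2 rose and Soat1 fell, summed to 62.8 and 62.5 in cKO and 77.4 and 81.2 in WT, with Mc5r not well above background on any array. Fibroblast markers, of which Dpt rose and Lum fell (-0.44 and -0.43 and not called with quantile normalization alone and after normexp), summed to 611 and 613 in cKO and 638 and 710 in WT. Of the 6, 1 had a positive and 5 a negative log2 value (4 and 2 with normexp and quantile normalization, 2 and 4 with quantile normalization). By their brightest probes Col1a1, Col1a2, Col3a1 and Pdgfra had -0.13, -0.08, -0.13 and -0.21. Their other tested probes were all lower, down to -0.48, -0.82, -0.81 and -0.66 on this scaling. The 5 macrophage markers, none called, summed to 23.1 and 22.5 in cKO and 25.7 and 25.6 in WT.

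Genes most like each member were sought by the Euclidean distance between mean-centred scaled log2 levels over the 4 arrays, among 17549 genes. For Edar the nearest named genes were Arxes2 (distance 0.075, log2 change 1.10) and Ugt3a1 (0.082, log2 change 1.19), and only 6 genes lay within 0.1. Edaradd, read from NM_133643, had 15 genes within that distance, with Ly6k at 0.044. Tnfrsf19, read from NM_013869, had 612, with Ptpn12, Mefv and Nmral1 nearest. The larger gap between duplicates was 0.34 log2 units for NM_133643 and 0.02 for NM_013869, and Edaradd AK162653 was not used here. Eda had 2241, led by Gfm2, Myom3 and Tbx3, and Eda2r had 2357, led by Abhd4 and Rabgef1. With 4 arrays of 2 pools the distance carries the change between pools and the spread of duplicates, and nothing across further conditions.

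**Figure D5:**
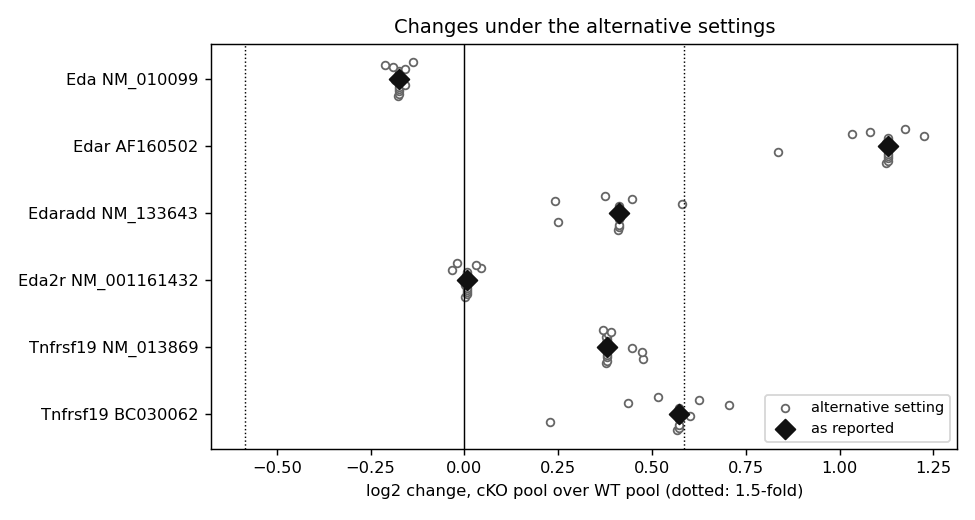
Log2 change of cKO over WT (x axis) for the 6 tested member probes (y axis), with diamonds for the values reported, open points for the alternative settings and dotted lines at 1.5-fold. Edar stayed between 0.84 and 1.22, beyond 1.5-fold in all 16 settings, and Tnfrsf19 BC030062 straddled the line between 0.23 and 0.71.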

How the data were processed

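Per the file headers, the authors took spot intensity from the scans with version 10.7.3.1 of Agilent's Feature Extraction, with spatial and multiplicative detrending. The deposited series table holds that intensity as a linear ratio to 1 number per array and was used as an alternative. Control spots were left out, and non-uniform or outlier spots were treated as missing (none among the members). The log2 of the processed intensity minus each array's 75th percentile was fitted without covariates (R 4.3.3, limma 3.58.1, moderated by eBayes), with two-sided p-values adjusted by Benjamini-Hochberg over 26070 probes. No spot was saturated. Symbols came from RefSeq's GRCm38.p6 gene table (26690 probes by accession, 5189 by symbol, 952 by older symbol, and 8343 kept the file's name). The comparison was tested on simulated data. Members and lists were chosen with earlier results of these data known. Named genes were every member probe, up to 5 called and the 2 brightest uncalled genes per pathway list, up to 3 called per marker list and undetected markers. Alternatives changed background correction, scaling, filters, probe summary, moderation, the fold threshold, the replicate block and single arrays. Figures used matplotlib 3.10.9. All 4 arrays share 1 slide and scan time.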

Additional observations from a re-analysis of the deposited data

How the results depend on the processing

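The number of arrays, 2 per pool with 1 pool a genotype, limits the precision of the values. Edar was called under all 16 alternatives (log2 0.84 to 1.22, adjusted p from 8.95e-05 to 0.042, limma), lowest with normexp and quantile normalization. Leaving out an array leaves 1 array in its group, which is then assumed to vary like the other group. Without a fold threshold, 5006 probes were called higher and 8115 lower, in place of 1283 and 1252. Of member probes 3 were then higher and 1 lower, with 6 and 2 in the NF-kB arm, 5 and 4 among Edar targets, 10 higher among Wnt genes, 3 and 4 among p53 targets and 1 and 4 among related receptors. Beside these list counts, 21% of all genes were higher and 32% lower. Normexp with quantile normalization called 863 probes higher and 657 lower, and 0 Edar targets and 0 p53 targets lower. The mean of probes, with fewer features tested, called 827 lower and 0 Edar targets lower. Quantile normalization called 2 member probes higher and 0 p53 targets lower. With single arrays left out, 1 to 2 member probes were higher, 0 to 1 Edar targets lower and 0 to 1 related receptors higher. Among the member probes and the list genes named by rule, the signs that turned belonged to values that were not called. The Eda2r value was -0.0015 with quantile normalization and -0.034 to 0.045 with single arrays left out (negative without WT replicate 1 and without cKO replicate 2), Edaradd AK041884 was -0.17 without WT replicate 2 and up to 0.52 with other arrays left out, and Tab1 was 0.020 with normexp and quantile normalization and 0.042 with quantile normalization. The causes were not tested. With the replicate number as a block, 1247 probes were higher and 1202 lower, Edar kept log2 1.13 (adjusted p = 0.022, limma) and no call of a member changed. Under the block the adjusted p of Eda was 0.057 and that of Tnfrsf19 BC030062 0.069, both past 0.05, while Tnfrsf19 NM_013869 had 0.026 (limma). Same-numbered arrays share only a number (correlation of their deviations -0.02).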
